A study of Mus musculus with 661 samples.

Results

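The insulin-like growth factor (IGF) family was followed as 10 genes, the ligands *Igf1* and *Igf2*, the receptor *Igf1r* and the binding protein genes *Igfbp1* to *Igfbp7*. They were chosen by name and were found, all 10 of them, among the 45808 genes of the count table. The data were single-cell transcriptomes of 354 mesenchymal and 307 endothelial cells of the bone marrow niche, from young (about 2 months) and old (about 24 months) wild-type C57BL/6 mice. Cells came from 6 sorted populations. Marrow was the source of LepR+ stromal cells (MSC-L) and sinusoidal endothelial cells (SEC). Endosteum was the source of Sca-1+ stromal cells (MSC-S), of osteoprogenitors without PDGFRα (OPr) or with it (mOPr), both sorted as LepR-negative, and of arteriolar endothelial cells (AEC).

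IGF1 and IGF2 act through the receptor tyrosine kinase IGF1R and support growth and survival of many cells, bone-forming cells among them. Most IGF outside cells is held by the IGF binding proteins, which carry the ligands, keep them from the receptor or release them when proteases such as PAPP-A cut the binding protein. IGFBP7 binds IGFs weakly and insulin more readily, and IGFBP6 prefers IGF2.

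The number of cells was 53 young and 58 old for MSC-L, 59 and 59 for MSC-S, 44 and 29 for OPr, 26 and 26 for mOPr, 84 and 82 for AEC, and 70 and 71 for SEC. Counts of nuclear genes per cell ranged from 57517 to 1488549, with a median of 416359. Group medians ran from 302201 in old SEC to 775426 in old OPr. No mouse is named for any cell, so each population and age, which may hold cells of several mice, was treated as 1 sample, and no test between groups was possible. Levels are nuclear gene counts scaled to CPM from the summed counts of a group, with exact 95% Poisson intervals. Old over young differences are log2 ratios with exact conditional binomial intervals. These cover counting error only, since reads without molecular identifiers are not independent molecules. Numbers in the cell titles fell into 3 ranges, which were treated as possible batches, and ratios are given within them as well. All SEC lay in the third range, and mesenchymal cells lay in ranges 1 and 2.

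The sorted populations were set against marker lists first. Endothelial markers summed to between 7643 and 8083 CPM in AEC and SEC, with *Pecam1* or *Eng* highest, and to at most 122 CPM in the mesenchymal groups. MSC-L markers, led by *Cxcl12*, summed to 61069 CPM in young and 50669 CPM in old MSC-L, and all 8 had counts in both. The LepR-negative endosteal sorts differed with age. In mOPr the same 8 genes summed to 1093 CPM in young and 22587 CPM in old cells, and in OPr to 6339 and 24166 CPM. Accordingly, 2 of 26 young and 14 of 26 old mOPr, and 3 of 44 young and 10 of 29 old OPr, carried the cluster labels M1 or M2, which also hold most MSC-L. Cartilage markers moved the other way in OPr, from 48766 to 6686 CPM. They were also lower in old mOPr (11796 to 726 CPM) and old MSC-S (8103 to 2912 CPM). Mural markers were higher in old OPr (800 to 2368 CPM) and old mOPr (532 to 2361 CPM). Hematopoietic markers summed to 4.94 CPM in young and 10758 CPM in old OPr, with all 15 genes detected and *S100a9* highest at 4041 CPM. These came from 8 old OPr that carried at least 7 of the 15 markers. Those 8 cells held 0 counts of *Igf1* and 6.16 CPM of *Igfbp4*. In SEC hematopoietic markers summed to 82.7 CPM in young and 381 CPM in old cells, and 1 old SEC carried 11 of them. Mesenchymal markers were at 1589 CPM in young and 966 CPM in old SEC, and 9 young and 4 old SEC lay in cluster E1, which the authors call doublets of mesenchymal and endothelial cells.

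Binding protein transcripts far outnumbered ligand transcripts in every group. Per kilobase of exon, the 7 binding protein genes together reached from 1372 CPM per kb in old AEC to 5412 CPM per kb in old MSC-S, whereas the 2 ligands together stayed between 3.17 CPM per kb in old SEC and 95.8 CPM per kb in old AEC. The leading gene per kilobase differed by population. It was *Igfbp4* in MSC-L (2154 CPM per kb young, 1763 old), *Igfbp6* in MSC-S (1886 young, 3264 old) and *Igfbp7* in OPr, mOPr, AEC and SEC at both ages. Per kilobase, MSC-L and MSC-S thus each had a leading binding protein transcript of their own and the other populations shared one, the same in young and old cells. This depends on the exon lengths. By CPM the leading gene differed with age in MSC-S (*Igfbp5* at 2990 CPM young, *Igfbp6* at 3629 CPM old). It also differed in OPr (*Igfbp7* at 1193, *Igfbp4* at 4216 CPM) and mOPr (*Igfbp5* at 4464, *Igfbp4* at 4060 CPM). In SEC it was *Igfbp4* at both ages.

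**Figure D1:**
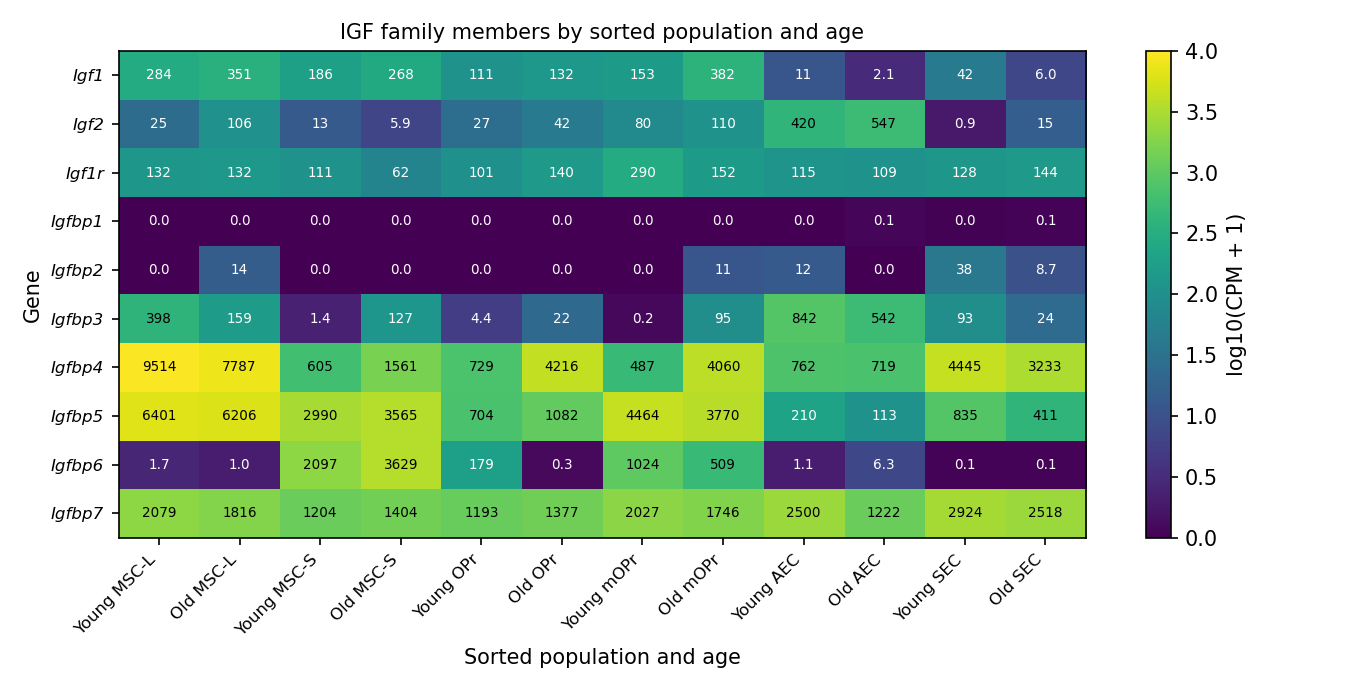
Levels of the 10 genes in the 12 groups, with genes on the y axis, sorted population and age on the x axis, color as log10(CPM + 1) and the CPM of summed counts in each box. *Igfbp4* was highest in young MSC-L at 9514 CPM and *Igfbp6* in old MSC-S at 3629 CPM, while *Igfbp1* stayed under 1 CPM in all groups.

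Members were counted for age differences in each population. A member was counted where it was at least 2-fold higher or lower in old cells, among those with at least 100 counts over both ages and detection in 25% or more of young or of old cells. In MSC-L this held for 2 of 7 members (*Igf2* higher, *Igfbp3* lower), beside 17.7% of all 9338 genes passing the same filter. In MSC-S it held for 3 of 8 members (*Igfbp3* and *Igfbp4* higher, *Igf2* lower), beside 12.4% of genes. In OPr it held for 3 of 8 (*Igfbp3* and *Igfbp4* higher, *Igfbp6* lower), beside 40.4%, and in mOPr for 4 of 8 (*Igf1*, *Igfbp3* and *Igfbp4* higher, *Igfbp6* lower), beside 40.5%. AEC had 3 of 8 (*Igfbp6* higher, *Igf1* and *Igfbp7* lower), beside 11.4%, and SEC had 4 of 7 (*Igf2* higher, *Igf1*, *Igfbp3* and *Igfbp5* lower), beside 13.5%. In OPr and mOPr the members' counts were close to that background. Over the 6 populations, 19 of the 46 pairs of member and population passed 2-fold, 10 of them higher and 9 lower in old cells. This was 41.3%, beside 22.97% of all genes weighted over the same populations, and neither share was tested.

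*Igf1*, the main ligand of the receptor, was a mesenchymal transcript. In young MSC-L its level per cell ran from 0 to 1241 CPM with a median of 208, and in old MSC-L from 0 to 3168 CPM with a median of 182. In MSC-S the median was 2.72 CPM in young and 62.5 CPM in old cells, with the highest cells at 1841 and 3364 CPM. OPr had a median of 0 at both ages, and so did AEC and SEC. *Igf1* was thus carried by nearly all MSC-L (50 of 53 young, 53 of 58 old) and by a part of the cells in the other mesenchymal populations. The summed level in MSC-L was 284 CPM (95% interval 277 to 291) in young and 351 CPM (342 to 359) in old cells, with log2 ratios of -0.37 in range 1 and 0.52 in range 2.

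In mOPr, *Igf1* was at 153 CPM in young and 382 CPM in old cells, a log2 ratio of 1.32 (1.25 to 1.40). It had counts in 9 of 26 young and 20 of 26 old cells. A single young mOPr held 56.7% of the young counts, and the ratio was 1.98 without the highest cell of each age. It was 0.36 in range 1 and 2.10 in range 2, and 1.68 among the mOPr outside clusters M1 and M2. The direction was therefore shared by these subsets, while its size was not. In OPr, the pooled log2 ratio of 0.25 was -3.21 outside M1 and M2, and -2.34 when the cells with hematopoietic markers were also left out. Old OPr *Igf1* lay mainly in the cells of M1 and M2 at 283 CPM, and 1 cell held 96.3% of the counts outside them.

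Endothelial *Igf1* was low and lower still in old cells. SEC had 42.3 CPM (39.6 to 45.1) in young and 6.03 CPM (5.02 to 7.19) in old cells, a log2 ratio of -2.81 (-3.09 to -2.54). Most of the young level lay in the E1 and E2 cells, since 294 of the 928 young counts remained without them. The E1 and E2 cells were at 192 CPM in young and 35.9 CPM in old SEC. The old value rests on 61 counts with 80.3% in 1 cell. Without E1 and E2 *Igf1* was at 15.8 and 3.36 CPM, a log2 ratio of -2.23, and 1 cell held 57.8% of the old counts. The ratio was -3.06 when the highest young and old cells were left out as well. AEC had 10.6 CPM in young and 2.12 CPM in old cells, a log2 ratio of -2.32, and this did not hold in all ranges. It was -4.62 in range 1 and -3.09 in range 2, but 3.86 in range 3, where the level was 0.62 CPM in young cells.

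*Igf2*, the fetal-type ligand from an imprinted locus, was highest in AEC, where *Igf1* was low. The level per AEC ran from 0 to 4323 CPM with a median of 2.14 in young cells, and from 0 to 3205 CPM with a median of 3.95 in old cells. Most AEC were thus near 0 and a subset was very high. Cluster E3 was the highest, where *Igf2* was at 1167 CPM in young and 1168 CPM in old cells, against 3.53 and 14.6 CPM in cluster E4. The 5 young AEC of E1 and E2 were at 408 CPM and the 3 old ones at 118 CPM. Cells of E5 were at 119 CPM in young and 6.87 CPM in old mice. *Igf2* was a guide gene of the endothelial clustering, so the gap between these clusters is a description. Pooled AEC were at 420 CPM in young and 547 CPM in old cells, a log2 ratio of 0.38 (0.35 to 0.41), with 0.26, 0.43 and 0.58 in the 3 ranges.

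Among mesenchymal cells, *Igf2* was higher in old MSC-L. The median cell was at 0 CPM at both ages, and the highest cell was at 302 CPM in young and 1830 CPM in old MSC-L. Counts were present in 17 of 53 young and 28 of 58 old cells. The summed level was 24.5 CPM (22.5 to 26.6) in young and 106 CPM (102 to 111) in old cells, a log2 ratio of 2.12 (1.98 to 2.26), and it was 1.66 and 2.50 in ranges 1 and 2. In clusters M1 and M2, which hold OPr and mOPr beside MSC-L, *Igf2* was at 36.4 and 98.5 CPM in young and old M1, and at 0 and 80.2 CPM in young and old M2. In MSC-S the pooled log2 ratio of -1.09 hid opposite ranges, 3.35 in range 1 and -2.88 in range 2. The ranges were opposite too in OPr (0.65 pooled, -0.60 and 2.46) and in mOPr (0.45 pooled, -1.56 and 1.08). Without the cells with hematopoietic markers old OPr were at 55.7 CPM of *Igf2*, against 26.7 CPM in young OPr, which is past 2-fold. In SEC *Igf2* went from 0.87 to 14.7 CPM, a log2 ratio of 4.08 (3.41 to 4.83), and 1 cell held 44.4% of the old counts. Without E1 and E2 cells SEC were at 0.91 and 3.84 CPM, a log2 ratio of 2.07. In SEC-like cells (E7) the ratio was 1.89, and it was 0.41 once the highest young and old cells were left out. The 5 E1 and E2 cells held 231 of the 304 counts of old SEC, at 136 CPM. Old SEC also had more transcripts of arterial markers (458 CPM young, 1433 old) and fewer of sinusoidal markers (18739 and 14059 CPM), and 2 old SEC lay in E3. Whether the other 73 counts came with such cells was not tested.

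*Igf1r*, the receptor shared by both ligands, had more than 1000 counts in every group. Its level lay between 62.1 CPM (59.7 to 64.7) in old MSC-S and 290 CPM (281 to 299) in young mOPr. In the order of groups, young mOPr at the top and old MSC-S at the bottom lay apart from their neighbors in the values of the ranges. From old OPr down to young OPr, all neighbors with more than 1 range overlapped. No sorted population passed 2-fold with age when ranges were pooled. The log2 ratio was 0.00 in MSC-L, -0.84 in MSC-S, 0.48 in OPr, -0.93 in mOPr, -0.09 in AEC and 0.17 in SEC. Range 2 alone gave -1.07 in MSC-S and -1.18 in mOPr. Of the cell clusters, M7 gave -1.33 and M12 -1.40, and MSC-S-like cells together -1.23. After each cell was thinned to 100000 counts, from 64.6% of old AEC to 92.3% of young mOPr still had a count of *Igf1r*. Receptor transcripts were therefore found across all niche populations, and also in the 8 old OPr with hematopoietic markers, at 161 CPM. Of those 8 cells 5 had counts, and 1 cell held 43.9% of them.

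*Igfbp4*, whose product is the main substrate of PAPP-A, had the most counts of all members over all cells. Its level per cell in MSC-L ran from 11.4 to 30071 CPM with a median of 9081 in young cells, and from 22.8 to 23961 CPM with a median of 5594 in old cells. Among young cells SEC came next, with a range from 827 to 11731 CPM and a median of 4048, and old SEC ranged from 2.42 to 14662 CPM with a median of 2865. By summed counts old OPr (4216 CPM) and old mOPr (4060 CPM) lay above old SEC (3233 CPM). In young mice *Igfbp4* was thus highest in the stromal and the endothelial population of central marrow. The log2 ratio of old over young was -0.29 in MSC-L, -0.46 in SEC and -0.08 in AEC. The AEC value covered 0.09, 0.17 and -1.01 in the 3 ranges, and 0.97 in cluster E3.

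In endosteal mesenchymal cells, *Igfbp4* was higher with age. The median over cells was 297 CPM in young and 961 CPM in old MSC-S, 370 and 2527 CPM in young and old mOPr, and 8.45 and 73.9 CPM in young and old OPr. Summed levels in MSC-S were 605 CPM (597 to 614) and 1561 CPM (1549 to 1573), a log2 ratio of 1.37 (1.34 to 1.39), with 1.35 and 1.44 in ranges 1 and 2. In M7, M12 and M16, which held mostly MSC-S, of both ages, it was 0.34, 0.41 and 0.60 over all cells of the cluster, and 1.27 in M16 without the highest young and old cells. M9, with 2953 CPM, held old MSC-S only. In mOPr they were 487 and 4060 CPM, a log2 ratio of 3.06 (3.02 to 3.09), with 2.94 and 3.42 in the ranges. In OPr they were 729 and 4216 CPM, a log2 ratio of 2.53 (2.51 to 2.55), with 2.06 and 5.44. A single young OPr held 60.4% of the young counts there, and the ratio was 3.55 without the highest cell of each age.

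The old OPr and mOPr with high *Igfbp4* were in large part the cells of clusters M1 and M2. In old mOPr these 14 cells were at 6824 CPM and the other 12 at 987 CPM, and in old OPr the 10 cells were at 9041 CPM and the other 19 at 280 CPM. Outside M1 and M2 the log2 ratio was 1.19 in mOPr and 1.36 in OPr, and it was 2.22 in OPr when the cells with hematopoietic markers were also left out. Without the highest cell of each age the mOPr ratio became 0.90. The OPr ratio became -0.69 with and 0.18 without the cells with hematopoietic markers, since 1 old cell held 83.6% of the counts outside M1 and M2. The age difference of *Igfbp4* in OPr thus lay in the cells of M1 and M2 and in that 1 cell, and the one in mOPr was smaller outside these clusters. *Igfbp4* was itself a guide gene of the clustering, and no MSC-S lay in M1 or M2.

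*Igfbp3*, the main carrier of IGF1 in blood, changed in opposite directions in different populations. Its level per cell in MSC-L ran from 0 to 2168 CPM with a median of 226 in young cells, and from 0 to 1192 CPM with a median of 3.61 in old cells. The summed level went from 398 CPM (390 to 407) to 159 CPM (153 to 164), a log2 ratio of -1.33 (-1.39 to -1.27), with -1.94 and -1.13 in the ranges. It was lower in both clusters, from 340 to 177 CPM in M1 and with a log2 ratio of -2.70 in M2. SEC went from 93.1 to 24.4 CPM, a log2 ratio of -1.93 (-2.08 to -1.79), and a log2 ratio of -1.15 without E1 and E2. AEC held the highest level, with 842 CPM in young and 542 CPM in old cells, a log2 ratio of -0.63, with 0.07, -0.81 and -1.15 in the 3 ranges.

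Endosteal mesenchymal cells had nearly no *Igfbp3* when young. MSC-S were at 1.36 CPM (1.00 to 1.81), mOPr at 0.21 CPM (0.04 to 0.60) and OPr at 4.36 CPM (3.64 to 5.19). In old mOPr the level was 94.8 CPM, a log2 ratio of 8.85 (7.30 to 11.13), with counts in 11 of 26 cells. Those counts lay in the M1 and M2 cells at 178 CPM, whereas the other old mOPr were at 2.03 CPM. In old MSC-S the level was 127 CPM, a log2 ratio of 6.55 (6.14 to 7.00), but 1 cell held 76.9% of the counts and the median was 0 CPM. Cells with counts numbered 11 of 59 young and 15 of 59 old MSC-S. Without the highest cell of each age the MSC-S ratio was 6.29. In OPr the ratio of 2.33 was -1.28 in range 1 and 8.14 in range 2.

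*Igfbp5*, a binding protein held in bone matrix, was high in the mesenchymal populations except OPr and stayed within 2-fold with age in them when ranges were pooled. Its median over cells was 5484 CPM in young and 5414 CPM in old MSC-L, 1519 and 2162 CPM in MSC-S, and 1799 and 3131 CPM in mOPr. The log2 ratio of summed counts was -0.04 (-0.06 to -0.03) in MSC-L, 0.25 in MSC-S, 0.62 in OPr (1.41 in range 1, -0.03 in range 2) and -0.24 in mOPr. Without the cells with hematopoietic markers old OPr were at 1442 CPM, against 704 CPM in young OPr, which is past 2-fold. Outside M1 and M2 the OPr ratio was -2.28, from 562 to 116 CPM, and -1.43 when the cells with hematopoietic markers were also left out. In AEC the pooled ratio of -0.90 covered -5.10, 0.19 and -1.72 in the 3 ranges, and 1 old cell held 53.3% of the old counts. Without E1 and E2 cells, AEC were at 37.3 and 40.4 CPM, a log2 ratio of 0.12. Of those old counts 1 cell held 80.4%, and the ratio was -1.52 without the highest young and old cells. In SEC the level went from 835 to 411 CPM, a log2 ratio of -1.02 (-1.06 to -0.99). There the E1 and E2 cells were at 4806 CPM in young and 3807 CPM in old cells, and 1 of the 5 old cells held 72.4% of their counts. The SEC ratio was -1.84 when the highest young and old cells were left out. The remaining SEC were at 133 and 107 CPM, a log2 ratio of -0.31. The lower *Igfbp5* of old SEC lay mostly in the number of E1 and E2 cells, 9 of 70 in young and 5 of 71 in old SEC, and in their level. *Igfbp5* was a guide gene of the endothelial clustering, so this is a description.

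*Igfbp6*, which prefers IGF2 as its ligand, marked MSC-S and was near 0 in MSC-L. Its level per cell in MSC-S ran from 0 to 10200 CPM with a median of 1135 in young cells, and from 0 to 17188 CPM with a median of 1782 in old cells. The summed level in MSC-S was 2097 CPM (2082 to 2112) in young and 3629 CPM (3610 to 3648) in old cells, a log2 ratio of 0.79 (0.78 to 0.80). The ratio was 0.49 in range 1 and 1.02 in range 2. Over all cells of clusters M7, M12 and M16 it was 0.62, -0.51 and 0.45, and M9, the cluster with most *Igfbp6*, held old MSC-S only. MSC-L had 1.67 CPM in young and 1.03 CPM in old cells. Young mOPr were at 1024 CPM and old mOPr at 509 CPM, a log2 ratio of -1.01 (-1.05 to -0.97). The mOPr ratio was -1.66 in range 1, -0.23 in range 2 and -0.01 outside M1 and M2. In young OPr the level was 179 CPM in 11 of 44 cells, with 62.3% in 1 cell, and in old OPr it was 0.28 CPM, a log2 ratio of -9.32 (-10.77 to -8.20), and -9.20 outside M1 and M2. The AEC ratio of 2.49 rested on 1 old cell with 89.0% of the counts, and it was -0.55 without the highest cell of each age.

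*Igfbp7*, which is also an insulin-binding protein of vessel walls, had the flattest profile, between 1193 CPM in young OPr and 2924 CPM in young SEC. When all cells were pooled it stayed within 2-fold with age in 5 populations. Outside M1 and M2 it was lower in old OPr (1065 to 463 CPM, a log2 ratio of -1.20) and old mOPr (2024 to 975 CPM, -1.05). Without the highest young and old cells these ratios were -2.00 and -1.59. The OPr ratio was -0.33 when the cells with hematopoietic markers were left out together with M1 and M2. In that subset 1 old cell held 52.9% of the counts, and the ratio was -1.04 without the highest young and old cells. In AEC its level per cell ran from 0 to 21521 CPM with a median of 1977 in young cells, and from 0 to 8103 CPM with a median of 764 in old cells. Summed levels were 2500 CPM (2483 to 2516) and 1222 CPM (1211 to 1234), a log2 ratio of -1.03 (-1.05 to -1.02), with -2.17, -0.66 and -0.65 in the 3 ranges. Clusters E3 and E4 were both lower in old cells, from 678 to 183 CPM and from 3392 to 1922 CPM. Of AEC, 24 of 84 young and 34 of 82 old cells lay in E3, the cluster with less *Igfbp7*. Sinusoidal markers were also lower in old AEC (2018 to 1198 CPM), and whether *Igfbp7* went with such cells was not tested.

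*Igfbp1*, a liver gene, had 8 counts in all cells together. *Igfbp2* had 1858 counts, mainly in SEC, where 14 of 70 young and 3 of 71 old cells had counts. Its level in SEC was 38.3 CPM (35.7 to 40.9) in young and 8.73 CPM (7.51 to 10.1) in old cells, of which 1 cell held 95.6%. Young MSC-L, MSC-S, OPr and mOPr and old OPr had 0 counts of *Igfbp2*, which in young MSC-L leaves an upper limit of 0.16 CPM. Old MSC-L were at 14.0 CPM in 5 of 58 cells, with 79.4% in 1 cell. Neither gene passed the filter in any population.

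**Figure D2:**
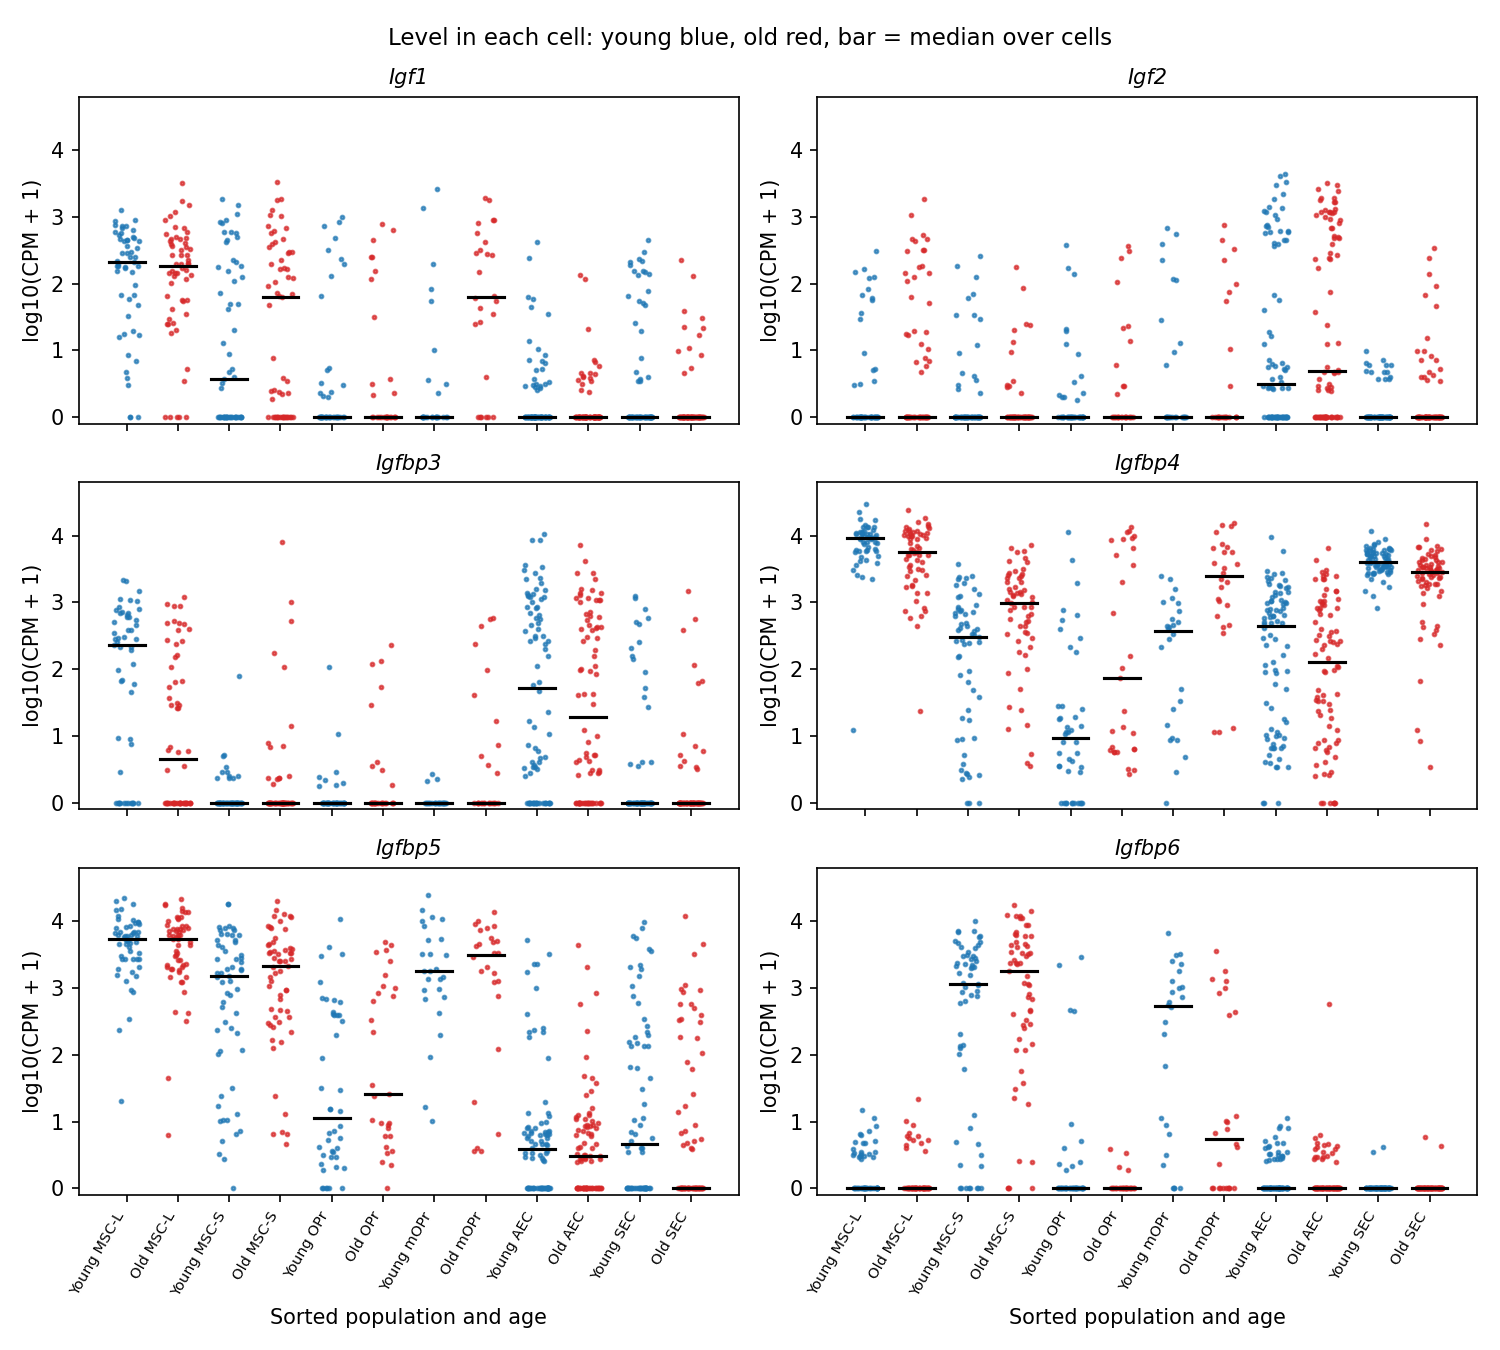
Level of 6 members in each cell as log10(CPM + 1) on the y axis, by sorted population and age on the x axis, with young cells in blue, old cells in red and the median over cells as a bar. The median of *Igfbp4* was 370 CPM in young and 2527 CPM in old mOPr, while single cells carried most *Igfbp3* of old MSC-S.

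Marrow and endosteal stroma of young mice were compared to ask how the family differs by location. Of 8 members that passed the filter, 3 were at least 2-fold higher in MSC-L and 1 in MSC-S, beside 41.3% of 10158 genes in either direction. *Igfbp4* was higher in MSC-L by a log2 ratio of 3.97 (3.95 to 3.99), with 4.04 and 3.92 in the ranges, and *Igfbp3* by 8.19 (7.78 to 8.64), with 6.69 and 10.43. *Igfbp6* was lower in MSC-L, with a log2 ratio of -10.30 (-10.80 to -9.84). These members differed most between MSC-L and MSC-S, while *Igfbp5* and *Igfbp7* were abundant in both, and the number past 2-fold was near the share of all genes. *Igfbp5* was higher in MSC-L by 1.10 and fell under 2-fold with other size factors, which gave 0.80. *Igf1* and *Igf1r* differed by 0.61 and 0.26, and *Igf2* by 0.96, with 4.53 in range 1 and -0.05 in range 2.

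Young SEC and young AEC were compared within range 3, which held both. Of 7 members that passed, 3 were at least 2-fold higher in SEC and 2 in AEC, beside 38.4% of 9563 genes. *Igf2* was lower in SEC with a log2 ratio of -7.36 (-8.10 to -6.71), and so was *Igfbp3* with -2.83 (-2.91 to -2.76). *Igfbp4* was higher in SEC by 1.93 (1.90 to 1.97) and *Igfbp5* by 1.69 (1.62 to 1.76). *Igf1* was higher by 6.10 (4.74 to 7.98), from 4 counts in AEC. Without E1 and E2 cells these became 3.97 for *Igfbp5* and 4.54 for *Igf1*, and 15835 of the 18320 *Igfbp5* counts of young SEC lay in the 9 E1 cells. *Igf2* and *Igfbp3* were thus higher in endosteal and *Igfbp4* in marrow endothelium, with *Igfbp4* at 1162 CPM in these AEC as well. *Igfbp7*, at 2206 CPM in AEC and 2924 CPM in SEC, differed by 0.41.

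The published clusters, built by ICGS from guide genes, divided the members further. *Igfbp3*, *Igfbp4* and *Igfbp6* were guide genes of the mesenchymal and *Igf1*, *Igf2*, *Igfbp4* and *Igfbp5* of the endothelial clusters, so the levels describe the clusters and test nothing. *Igfbp4* was at 9563 CPM in M1 and 6045 CPM in M2, but at 5.58 CPM in M3, a cluster of OPr. *Igfbp5* was at 3.44 CPM in M3 as well, against 6199 CPM in M7. *Igfbp6* was highest in M9 at 9293 CPM, a cluster of 10 cells that were all old MSC-S. M9 also had the lowest *Igf1r* of any cluster, at 12.1 CPM. Among endothelial clusters E1 stood apart with 6819 CPM of *Igfbp4* and 4757 CPM of *Igfbp5*.

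**Figure D3:**
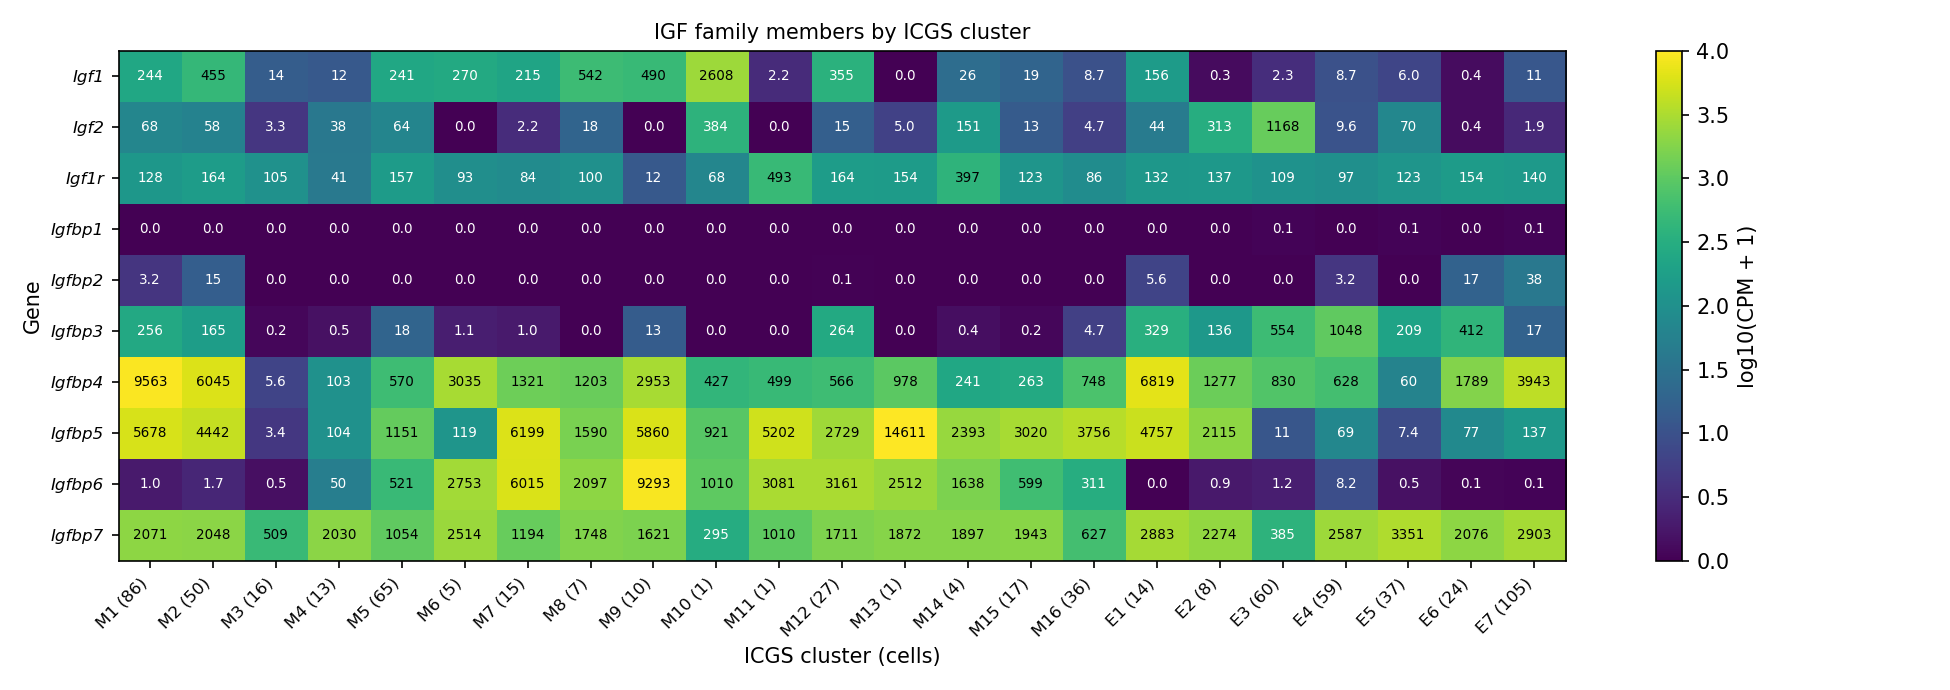
Levels of the 10 genes in the 23 clusters, with genes on the y axis, cluster and number of cells on the x axis, color as log10(CPM + 1) and the CPM in each box. *Igf2* was at 1168 CPM in E3 and 9.62 CPM in E4, whereas *Igfbp7* was at 385 and 2587 CPM.

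Ligand and receptor were also counted within single cells. *Igf1* and *Igf1r* both had counts in 42 of 53 young and 45 of 58 old MSC-L, in 28 of 59 young and 31 of 59 old MSC-S, and in 21 of 70 young and 11 of 71 old SEC. At equal depth their Spearman rho across cells was -0.17 in young and -0.30 in old MSC-L. It was 0.08 in young and -0.35 in old MSC-S and 0.07 in old mOPr, so that joint detection did not go with joint levels. *Igf2* and *Igf1r* were found together in 37 of 84 young and 41 of 82 old AEC. In AEC thinned to equal depth, *Igf2* and *Igfbp7* ran in opposite directions across cells, with a Spearman rho of -0.57 over 83 young and -0.70 over 82 old cells. AEC mix cells of E3, high in *Igf2* and lower in *Igfbp7*, with cells of E4, where the reverse held. Since *Igf2* was a guide gene of that clustering, this rho is a description. In old OPr and mOPr, *Igfbp4* and *Pappa* ran together, with rho of 0.84 over 27 and 0.78 over 26 cells, while in young and old MSC-L the values were 0.02 and -0.05. In old OPr *Igfbp4* also ran with *Igfbp5* (0.77) and *Igfbp7* (0.78). With *Igfbp7* the rho was 0.53 in old mOPr, and 0.34 in young and 0.70 in old MSC-L. Old OPr and mOPr mix M1 and M2 cells with others, and old OPr also hold the 8 cells with hematopoietic markers. Both *Igfbp4* and *Pappa* were guide genes. These describe cells that share sorts and ranges of library numbers.

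Proteases that cut the binding proteins were set beside their substrates. *Pappa*, which encodes PAPP-A, was at 1572 CPM in young and 1509 CPM in old MSC-L, where *Igfbp4* was highest, and at 11.6 and 8.19 CPM in MSC-S. In mOPr *Pappa* was at 11.5 CPM in young and 403 CPM in old cells, a log2 ratio of 5.13, and in OPr at 208 and 439 CPM. Outside M1 and M2, *Pappa* was at 11.4 and 14.2 CPM in mOPr and at 55.8 and 1.78 CPM in OPr, so that old cells of these sorts had it in the cells of M1 and M2. The old OPr outside M1 and M2 here include the 8 cells with hematopoietic markers. *Stc1*, an inhibitor of PAPP-A, was an endothelial transcript, with 157 and 182 CPM in young and old AEC and 82.7 and 96.0 CPM in SEC. *Htra1*, a protease that cuts IGFBP5, was lower in old mOPr (2978 to 174 CPM) and old MSC-L (620 to 125 CPM). The list of 11 genes for IGFBP proteases and their inhibitors also held *Igfals*, which passed the filter in no population. In this list 36 pairs of gene and population passed the filter, with 3 at least 2-fold higher and 10 lower in old cells. These were 36.1% of the pairs, beside 22.7% of all genes weighted over the same populations.

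*Insr*, the insulin receptor, was at 942 CPM in young and 822 CPM in old SEC and at most 303 CPM in the other groups. *Irs1* was at 338 and 360 CPM in young and old MSC-L and at 5.91 and 3.44 CPM in AEC. *Irs2* was highest in old mOPr at 288 CPM and was at 2.78 and 1.93 CPM in young and old SEC. With age, 1 of 12 pairs passed 2-fold for the 3 other receptors (*Insr* higher in mOPr, 1.38), or 8.33% beside 22.7% of all genes weighted in the same way. For the 11 adaptors, 8 of 46 pairs were higher and 3 lower, or 23.9% beside 23.8%, the largest being *Grb14* in mOPr at 4.58. For 19 genes of the PI3K-AKT arm, 7 of 101 pairs were higher and 11 lower, or 17.8% beside 22.2%, with *Pik3r3* at 2.44 in SEC as the largest among the higher ones. The list as fixed also held *Pdk1*, which encodes pyruvate dehydrogenase kinase and is left out here. None of these shares was tested.

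Growth hormone raises *Igf1* in its target cells through GHR, JAK2 and STAT5. *Ghr* was highest in MSC-L, at 481 CPM in young and 421 CPM in old cells, and was higher in old OPr (60.3 to 308 CPM), mOPr (65.0 to 212 CPM) and AEC (a log2 ratio of 1.51). Outside M1 and M2 its log2 ratio was 1.88 in OPr and 1.16 in mOPr. For *Ghr*, and for *Wisp2* below, these old OPr again include the cells with hematopoietic markers. In this list of 7 genes, 9 of 39 pairs were at least 2-fold higher and 2 lower in old cells, or 28.2% beside 22.02% of all genes. *Htra1* and *Htra3*, counted above with the proteases, were counted again among genes with an IGFBP-like domain. These genes, 12 in number, had 6 of 53 pairs higher and 14 lower, or 37.7% beside 23.9%. Of these, *Esm1* was at 1807 CPM in young MSC-L and 0.43 CPM in young MSC-S, and *Nov* at 386 CPM in young MSC-S and 0.26 CPM in young MSC-L. *Wisp2* was higher in old mOPr with a log2 ratio of 5.32, and lower outside M1 and M2 (-2.70), whereas in OPr outside M1 and M2 it was higher (6.25). At the *Igf2* locus and among its mRNA binders, 6 genes gave 4 pairs, with 1 higher (*Igf2bp2* in mOPr, 1.37) and 1 lower (*H19* in OPr, -9.11, with 1 old count), beside 33.4% of all genes. *H19* at 313 CPM in old mOPr came from 1 cell with 99.9% of the counts.

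In the GRCm38 annotation, several members are neighbors. *Igfbp2* (chr1:72824503-72852474, plus strand) and *Igfbp5* (chr1:72857932-72874884, minus strand) end 5.46 kb apart, and *Igfbp1* (chr11:7197782-7202546, plus strand) and *Igfbp3* (chr11:7206086-7213923, minus strand) end 3.54 kb apart. The neighbors were not expressed alike, with *Igfbp5* at 6401 CPM and *Igfbp2* at 0 in young MSC-L. *Igfbp4* lies at chr11:99041244-99054392, *Igfbp6* at chr15:102144362-102149511, *Igf1* at chr10:87858265-87937042 and *Igf1r* at chr7:67952827-68233668, all on the plus strand. *Igf2* lies at chr7:142650766-142666816 and *Igfbp7* at chr5:77349240-77408041 on the minus strand. Reads were counted without strand, so reads of overlapping antisense genes may have been given to a member. *Igf2os* had 151 counts beside 41538 for *Igf2*, and *Igf1os* 53 beside 44864 for *Igf1*. *Igfbp7* overlaps *Polr2b*.

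The promoter windows of *Igfbp4* and *Igfbp6* are shown because these genes had opposite distributions between MSC-L and MSC-S. Windows of 300 bases from RefSeq (GRCm38.p6) matched all 10 members, with 14 windows. The TATA box core (TATAAA), the CCAAT box and the GC box (GGGCGG) were searched on both strands, and capitals mark matches. They were in 13.6%, 37.4% and 35.7% of the 32851 windows in the table. Of the 14 member windows, 14.3%, 21.4% and 35.7% held them. Among members, 2 had TATAAA in a window, 3 had CCAAT and 4 had GGGCGG. *Igfbp4* had 1 TATAAA, from base 223 of its window (chr11:99040994-99041293, plus strand). *Igfbp6* had 1 match to TATAAA on the opposite strand, from base 103, and 2 CCAAT (chr15:102143936-102144235, plus strand). A match is a description of letters only.
Igfbp4: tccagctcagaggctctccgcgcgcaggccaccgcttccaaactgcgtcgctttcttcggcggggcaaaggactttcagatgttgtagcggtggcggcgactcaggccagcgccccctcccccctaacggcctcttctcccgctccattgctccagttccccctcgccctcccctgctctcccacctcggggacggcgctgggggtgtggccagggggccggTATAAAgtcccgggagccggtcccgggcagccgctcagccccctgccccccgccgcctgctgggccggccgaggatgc
Igfbp6: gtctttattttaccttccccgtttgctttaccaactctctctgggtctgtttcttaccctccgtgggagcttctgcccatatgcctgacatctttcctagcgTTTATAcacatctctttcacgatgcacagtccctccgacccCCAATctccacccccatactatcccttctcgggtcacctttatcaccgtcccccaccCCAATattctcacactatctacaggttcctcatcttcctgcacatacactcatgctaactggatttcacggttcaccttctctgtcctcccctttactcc

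Genes with the most similar profile over the 12 groups were searched among 13341 genes with at least 1000 counts, by Pearson r of log2(CPM + 1). For *Igfbp4* they included *Rtn4rl1* (0.96) and *Zfp839* (0.94), and for *Igfbp6* *Gpnmb* (0.97), *Mitf* (0.97) and *Osr2* (0.97). For *Igfbp5* they were *Bicc1* (0.97), *Lhfp* (0.96) and *Col5a3* (0.95), and for *Igf1* *Antxr1*, *Egfr* and *Fbln1* (0.97 each). For *Igf2* they were *Tmtc1* (0.90), *Nfat5* (0.90) and *Snora28* (0.90), and for *Igf1r* *Ppil1* (0.90), *Rhot2* (0.85) and *Trim41* (0.84). *Igfbp3* was closest to *Gbp5* (0.91), *Nrp1* (0.87) and *Lrrc36* (0.87), *Igfbp7* to *Cmtm3* (0.86), *Slc25a51* (0.85) and *Map4k5* (0.85), and *Igfbp2* to *Zbtb39* (0.86), *Dmwd* (0.86) and *Vars* (0.85). The 12 groups share cell types and ranges of library numbers, and the values carry no test.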

How the data were processed

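Libraries were of the Smart-Seq2 kind, with full-length cDNA from single wells. Raw HTSeq counts per gene, made by the authors without regard to strand from GSNAP (2015-09-29) alignments to GRCm38.p4, were deposited and used here. Of 46078 gene entries, 270 repeated a symbol and were summed with it, and 37 mitochondrial genes were left out of totals. Age, population and cluster came from the cell labels. The members and lists were chosen with earlier results of these data known. Genes named were the 10 members, genes of the pathway lists with the largest differences or chosen after their values were seen, and up to 3 of the genes most like each member. CPM, intervals and the 2-fold rule were computed for all genes in Python 3.11.15 with numpy 2.4.6, pandas 2.3.3 and scipy 1.17.1. Where 1 group had no count, 3 counts stood in its place. Alternatives were cell means of CPM, size factors by median of ratios, thinning to 100000 counts per cell, a pseudocount of 1 CPM, no filter, each range alone, identity groups of the clusters, and leaving out cells with hematopoietic markers, E1 and E2 cells or the highest cell. The threshold of 7 hematopoietic markers had been set with earlier results known, and no cell carried 7 to 10 of them. Doublets were not called. Protein sequences were not analysed here.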

Additional observations from a re-analysis of the deposited data

Results flagged for a closer look

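*Igf1* differed between populations in its direction with age. Its old over young log2 ratio was 1.32 in mOPr and -2.81 in SEC, a difference of 4.13. Both mOPr ranges were higher in old cells, and SEC came from 1 range. Most young SEC counts lay in E1 and E2 cells, and without those the SEC ratio was -2.23. The difference was not tested.

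*Igfbp3* was higher in old MSC-S and mOPr and lower in old MSC-L and SEC. It was also higher in pooled old OPr, where the ranges were opposite. Its log2 ratio was 8.85 in mOPr and -1.93 in SEC, a difference of 10.8. The mOPr value rests on 3 young counts, and on old cells of M1 and M2 (178 CPM, against 2.03 CPM outside them). In old MSC-S a single cell held most of the counts. The difference between mOPr and SEC was not tested either.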

How the results depend on the processing

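Of the 28 ratios past 2-fold, 18 stayed past it in the same direction under each alternative taken singly, among them *Igfbp4* in MSC-S, OPr and mOPr, *Igfbp3* in MSC-L, MSC-S, mOPr and SEC, and *Igf2* in MSC-L and SEC. Of these, *Igfbp4* in OPr and mOPr and *Igf2* in SEC went under 2-fold when a choice of cells and the highest cell were left out together. The number of alternatives ran from 6 to 13 by comparison. Range 3 alone held all SEC, so it could not change their ratios, and mOPr had no identity group. Outside M1 and M2 *Igfbp3* in mOPr rested on 3 young and 12 old counts. The 19 pairs past 2-fold between ages became 12 after thinning, with 38 pairs passing the filter in place of 46. Range 3 alone gave 7 of 13 pairs, but it holds only AEC and SEC, which gave 3 and 4 pairs with all cells. Identity groups gave 11 of 34 pairs, without mOPr, which gave 4 of the 19. Pairs higher in old cells, 10 over all populations, were 1 in range 3, where AEC and SEC had 1 each with all cells. They were 4 in identity groups, without mOPr, which had 3. Pairs lower in old cells went from 9 to 5 after thinning. They were 4 in range 2, which holds no SEC, and SEC had 3 of the 9. The comparisons of MSC-L with MSC-S and of SEC with AEC kept their counts within 1.5 times. Of these 28, directions reversed in range 1 for *Igf2* in MSC-S (3.35), *Igfbp3* in OPr (-1.28) and *Igfbp6* in AEC (-0.32), in range 2 for *Igfbp6* in AEC (-0.91), in range 3 for *Igf1* in AEC (3.86), in OPr-like cells for *Igfbp6* (0.69) and without the highest cell for *Igfbp6* in AEC (-0.55). The OPr-like group holds cells of other sorts, since its cluster M5 has 13 MSC-S and 19 mOPr beside 29 OPr. *Igfbp6* was at 421 CPM in old OPr-like cells and at 0.28 CPM in old sorted OPr, so the 0.69 is not a reversal within OPr. In AEC, the 1 old cell with 89.0% of the *Igfbp6* counts lay in range 3, so ranges 1 and 2 leave it out. For the other reversals the cause was not tested. Size factors moved all ratios by -0.17 in OPr, -0.13 in mOPr, -0.30 between MSC-L and MSC-S and 0.17 between SEC and AEC. Without the cells with hematopoietic markers 3 of 46 ratios crossed 2-fold. *Igf2* and *Igfbp5* in OPr were among these and came to lie past it, higher in old cells. Leaving M1 and M2 cells out of OPr and mOPr was chosen after seeing the data, and it also gave 19 pairs past 2-fold, of 43 passing the filter, though 6 ratios crossed it. *Igf1*, *Igfbp5* and *Igfbp7* in OPr and *Igfbp7* in mOPr came to lie past it (lower in old cells), and *Igfbp3* in OPr and *Igfbp6* in mOPr within it, while *Igfbp3* in OPr and mOPr and *Igfbp6* in OPr no longer passed the filter. Leaving out one replicate at a time did not apply. No paired analysis was possible because the labels number cells, and cells with the same number in different groups are not pairs. Since the labels name no mouse, differences between mice could not be measured.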
